A study of Mus musculus with 4 samples.

Results

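The 8 genes described here are Arc, Npas4, Homer1, Dusp1, Btg2, Nptx2, Ier2 and Plk2, a named set of genes that neurons switch on after synaptic activity, out of 21755 protein-coding genes on chromosomes 1 to 19 and X. Their sites of CTCF binding were taken from a chromatin immunoprecipitation sequencing (ChIP-seq) study of mouse hippocampus. A site belonged to a gene when its summit, the position of highest signal in a peak, lay in the gene's annotated span (GENCODE M21, mm10) or within 10 kb of either end. This rule gave 28 summits of the 90278 in the list of peaks shared by the biological replicates at an IDR of 0.05. The IDR, or irreproducible discovery rate, estimates from the ranks of peaks in both replicates the share of calls that would not recur.

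Biological replicate 1 and biological replicate 2 were each a pool of 7 tissue biosamples, sequenced as 2 technical libraries. Both came from the hippocampus (labelled as a layer of it) of adult male B6CASTF1/J mice aged 2 months, the F1 hybrid of the strains C57BL/6J and CAST/EiJ, and the labels record no treatment and no stimulation. A single donor entry is given for both pools, so it is not stated whether they held separate animals, and the spread between them may be partly technical. Each replicate had 1 signal value per peak, so no value per technical library or per parental allele was analysed here. The peak signal is a score from the authors' processing with no stated scale. It ranks peaks within the list, and in bulk tissue a lower signal from fewer bound cells cannot be told apart from weaker binding in each cell. The lists hold no expression values, so neither the activity of the genes nor the cell types of the tissue were checked here, and no group was available to test against. All results below are descriptions, set beside the same quantity over all genes or all peaks where that was computed.

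CTCF is a zinc-finger protein that binds a long, directional DNA motif. Together with cohesin it holds chromatin loops, most of them between motifs that point toward each other, and it can insulate genes from the enhancers of their neighbours. Genes induced by activity respond to calcium entry through factors such as CREB, SRF and AP-1 bound at their promoters and enhancers. The immediate early transcription factors among the induced genes switch on later genes, whereas the effector genes change signalling, receptor traffic and the structure of the synapse directly. This division is not strict. The set here holds transcription and nuclear regulators (Npas4, Btg2 and Ier2), enzymes of signalling pathways (Dusp1 and Plk2) and proteins of the synapse (Arc, Homer1 and Nptx2).

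The sequences below show the sites that the results turn on, each as 52 bases of the mm10 reference from 5′ to 3′ on the stated strand. The reference is of C57BL/6J, and the CAST/EiJ alleles were not analysed here. Capitals mark the 12 bases that came closest to the CTCF core motif within 50 bp of the summit. The first set holds the site with an exact match, followed by the best matches of Dusp1 and Arc, which had 1 mismatch each.
Npas4 peak 2, chr19:4981933-4981984, plus strand: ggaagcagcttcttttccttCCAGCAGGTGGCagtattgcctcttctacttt
Dusp1 peak 3, chr17:26508075-26508126, plus strand: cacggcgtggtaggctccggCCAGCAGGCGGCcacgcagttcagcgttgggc
Arc peak 1, chr15:74667833-74667884, plus strand: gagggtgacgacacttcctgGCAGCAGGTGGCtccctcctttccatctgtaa

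A second set is shown because its 5 matches share the opening word CCAGAAG. Each had its 1 mismatch at position 5 of the motif, counted from the motif's 5′ end.
Homer1 peak 7, chr13:93363870-93363921, plus strand: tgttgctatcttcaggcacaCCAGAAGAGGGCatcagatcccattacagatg
Homer1 peak 8, chr13:93374648-93374699, minus strand: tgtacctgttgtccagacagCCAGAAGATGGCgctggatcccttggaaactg
Homer1 peak 10, chr13:93401185-93401236, plus strand: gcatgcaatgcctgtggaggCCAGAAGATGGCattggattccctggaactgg
Ier2 peak 4, chr8:84654751-84654802, plus strand: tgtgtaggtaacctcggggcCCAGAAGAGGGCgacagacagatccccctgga
Plk2 peak 1, chr13:110391646-110391697, plus strand: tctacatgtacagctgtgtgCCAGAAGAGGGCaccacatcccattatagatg

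A last pair is shown because these were the strongest sites of the 8 genes that lacked a match with at most 1 mismatch. The best stretch had 2 mismatches at the Plk2 site and 3 at the Dusp1 site.
Plk2 peak 2, chr13:110392380-110392431, plus strand: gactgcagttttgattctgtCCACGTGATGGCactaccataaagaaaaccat
Dusp1 peak 2, chr17:26509220-26509271, minus strand: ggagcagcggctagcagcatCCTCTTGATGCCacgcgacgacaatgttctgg

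Every one of the 8 genes had at least 1 CTCF summit in its window, and every one had a summit within 5 kb of a transcription start site (TSS). Over all protein-coding genes, 81.0% had a summit in the window and 59.6% had one within 5 kb of a TSS. Within 1 kb of a TSS, 5 of the 8 genes had a summit, namely Homer1, Dusp1, Nptx2, Ier2 and Plk2, which is 62.5% (95% exact Clopper-Pearson interval 24.5 to 91.5, counting error only) beside 38.0% of all genes. That background lies inside the interval. These counts use GENCODE start sites. Npas4 also had a summit within 1 kb of the 5′ end of its longer RefSeq span, described below. Homer1 and Dusp1 had 2 or more promoter summits, 2 of 8 genes against 8.73% of all. These 2 genes have the most annotated start sites of the 8 (9 and 3), and the share over all genes was not matched for that number. Inside the gene span itself, 4 of the 8 genes had a summit (Homer1, Dusp1, Btg2 and Nptx2), beside 61.0% of all genes. With RefSeq spans the count for the 8 genes was 5, with Npas4 added. Of the 28 summits, 18 lay in gene spans, 7 upstream and 3 downstream. Introns held 12, exonic untranslated sequence 3, coding exons 2, and 1 lay in the Homer1 span outside any transcript of the basic annotation. No summit was closer to the TSS of another protein-coding gene than to that of its own gene. The nearest such TSS was that of Nacc1, 18849 bp from the outermost Ier2 summit.

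**Figure D1:**
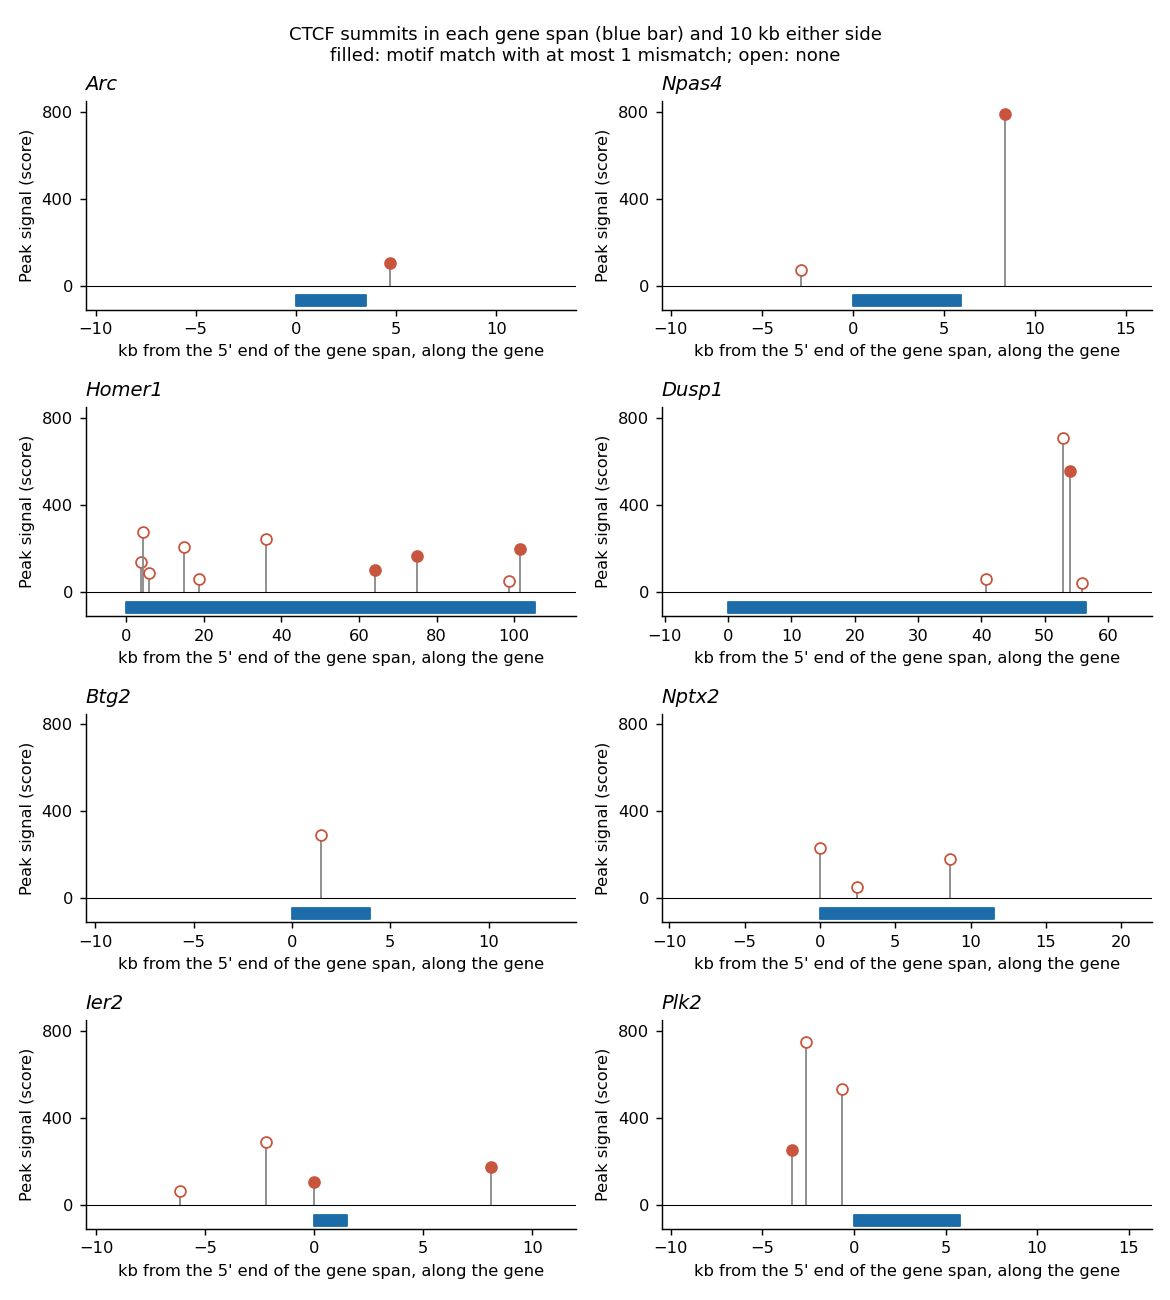
Position (kb from the 5′ end of the annotated gene span, in the direction of the gene) and peak signal (authors' score) of the 28 CTCF summits, with 1 panel per gene, the gene span as a blue bar and filled circles for summits with a motif match of at most 1 mismatch. The strongest peaks stand beyond the 3′ end of Npas4 (788), upstream of Plk2 (750.5) and on either side of the Dusp1 promoter (706 and 554).

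The number of summits per length of window differed several-fold among the 8 genes. In summits per 100 kb of gene span plus flanks, Ier2 had 18.6, Plk2 11.6, Nptx2 9.50, Homer1 7.97, Npas4 7.70, Dusp1 5.23, Arc 4.26 and Btg2 4.18. Ier2 stood at percentile 93.8 of all protein-coding genes and Btg2 at percentile 38.0. The median of the 8 genes was 7.84, against 6.0 for all genes and 6.52 for the 19434 genes no longer than Homer1, and it lay inside the quartiles of all genes (2.37 and 10.8). Adjacent ranks rest on a single summit in windows this small. Arc and Btg2 had 1 summit each, Npas4 had 2, Nptx2 and Plk2 had 3, Dusp1 and Ier2 had 4, and Homer1 had 10.

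**Figure D2:**
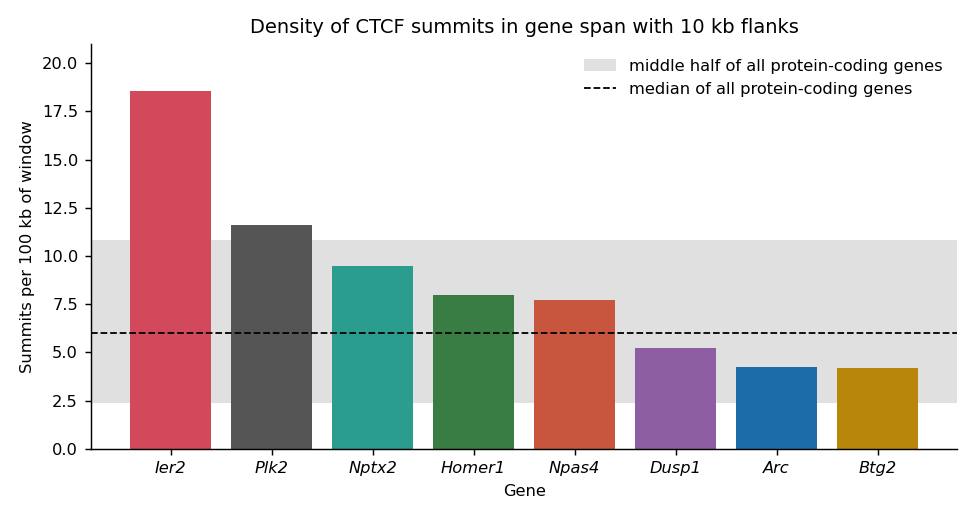
CTCF summits per 100 kb of gene span with 10 kb flanks, 1 bar per gene in descending order, with the median of all 21755 protein-coding genes as a dashed line (6.0) and their quartile range in grey (2.37 to 10.8). Ier2 and Plk2 stand above the grey band, and the other 6 genes stand inside it.

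Npas4 encodes a neuron-specific transcription factor that pairs with ARNT and regulates inhibitory synapses. Its 5962 bp span (chr19:4984355-4990316, minus strand) held no summit and was bracketed by 2. The RefSeq span, an alternative added after the data were seen, is 19087 bp long and takes in the upstream summit described next. With it, 2 summits lay in the span and 4 in the window, and the density was 10.2 per 100 kb in place of 7.70. Its 5′ end is at position 5003439, and a summit at 5003825 with a signal of 121 and a motif match lies within 1 kb upstream of it. The downstream summit, 2.40 kb past the gene's end and 8356 bp from the TSS, had a signal of 788, with 389 in replicate 1 and 405 in replicate 2. It was the strongest of the 28, at percentile 95.5 of the whole list, and its sequence above carries the one exact match to the motif. The upstream summit, 2850 bp before the TSS, had a signal of 70.5 (37.0 in replicate 1 and 34.0 in replicate 2). Its best motif stretch had 3 mismatches, and this summit was found in each single-replicate list but not in the list from pooled reads.

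Btg2 encodes a BTG/TOB family protein that recruits the CCR4-NOT deadenylase and restrains proliferation. It had 1 summit, in a coding exon 1474 bp inside its 3951 bp span (chr1:134075170-134079120, minus strand), with a signal of 290.0 at percentile 64.5. Replicate 1 gave 127 and replicate 2 gave 166. Relative to the median of all peaks, the log2 ratio of replicate 1 to replicate 2 was -0.29, the lowest of the 28. It exceeded the SD of 0.18 among all peaks of the same signal decile. The best motif stretch there had 2 mismatches.

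Ier2 encodes a small nuclear protein induced within minutes in many cell types. Its 1522 bp span (chr8:84661331-84662852, minus strand) held no summit, yet 4 lay close by. The summit 34 bp upstream of the TSS had a signal of 105, with 62.0 in replicate 1 and 41.6 in replicate 2. Its centred log2 ratio was 0.67, against an SD of 0.35 in its decile. At 2227 bp upstream the signal was 289 (139 in replicate 1 and 153 in replicate 2), the strongest of the gene, and at 8089 bp downstream of the TSS it was 172 (87.4 in replicate 1 and 85.0 in replicate 2). The outermost, 6161 bp upstream and inside the lincRNA gene Gm26664, had 62.2 (29.9 in replicate 1 and 30.7 in replicate 2). The Ier2 sites thus combined the densest placement of the 8 genes with signals that did not exceed percentile 64.4.

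Dusp1 encodes a nuclear phosphatase that inactivates MAP kinases. Its GENCODE span of 56539 bp (chr17:26505590-26562128, minus strand) follows from 1 long transcript, whereas the RefSeq span is 2882 bp. With the RefSeq span, Dusp1 kept 3 of its 4 summits and its density was 13.1 per 100 kb in place of 5.23. A pair of strong summits straddled the start sites at the RefSeq promoter. The one 722 bp upstream had a signal of 706 (336 in replicate 1 and 376 in replicate 2) at percentile 89.1, and the one 367 bp downstream, in a coding exon, had 554 (283 in replicate 1 and 272 in replicate 2) at percentile 79.7. These were the 2 strongest promoter peaks of the 8 genes. The downstream peak carried the match shown above, with 1 mismatch, and the stronger upstream peak had a best stretch with 3. The remaining summits were weak, with 60.6 (28.0 in replicate 1 and 32.3 in replicate 2) in the intron of the long transcript and 43.7 (20.7 in replicate 1 and 22.3 in replicate 2) in untranslated exon sequence. Neither was in any of the single-replicate or pooled-read lists, and the weaker had the lowest IDR score of the 28, 604, where 540 is the threshold.

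Plk2 encodes a polo-like kinase that phosphorylates the spine protein SPAR and marks it for degradation during sustained activity. All 3 summits of this 5799 bp gene (chr13:110395046-110400844, plus strand) lay upstream, the farthest 3368 bp from the TSS. The summit 2646 bp upstream had a signal of 750.5 (366 in replicate 1 and 388 in replicate 2), at percentile 92.6. The summit 664 bp upstream had 533 (277 in replicate 1 and 252 in replicate 2), and that at 3368 bp had 253 (124 in replicate 1 and 127 in replicate 2). Both stronger summits had best motif stretches with 2 mismatches, and the weakest of the 3 had the match with 1 mismatch. Signal and closeness to the motif therefore did not run together at these 3 sites. Over the whole list they did, as the share of summits with a match of at most 1 mismatch rose with signal. It was 29.0% in the weakest signal decile and 74.1% in the strongest.

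Arc encodes a cytoskeleton-associated protein whose mRNA travels into dendrites and which promotes the removal of AMPA receptors from the synapse. The 3488 bp gene (chr15:74669083-74672570, minus strand) had no summit in its body or at its promoter, and a single one 1.23 kb beyond its 3′ end. The signal there was 104, with 46.7 in replicate 1 and 55.5 in replicate 2, at percentile 33.3 of the list. It was found in both single-replicate lists and in the pooled-read list, and carried a match with 1 mismatch.

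Homer1 encodes a scaffold of the postsynaptic density that links glutamate receptors to Shank proteins and to internal calcium stores. Activity yields the short isoform Homer1a, which ends early and uncouples these links. The gene (chr13:93299635-93405129, plus strand) spans 105495 bp with 9 annotated start sites, and all 10 of its summits lay within the span. The summits at start sites were 376 bp upstream of the RefSeq TSS (signal 139, with 89.9 in replicate 1 and 53.4 in replicate 2), 118 bp downstream of it (274, with 139 in replicate 1 and 137 in replicate 2) and 163 bp downstream of a further start (89.0, with 47.5 in replicate 1 and 42.6 in replicate 2). The one at 118 bp was the strongest of the gene and lay in untranslated exon sequence.

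The 7 intronic Homer1 summits farther than 1 kb from a start site ran along the rest of the gene, and none was past percentile 60.3 of all peaks. Peaks 4, 5 and 6, at 6487, 10243 and 27504 bp from the nearest start site, had signals of 206, 58.0 and 242. Replicate 1 gave 92.5, 27.6 and 121 at these peaks, and replicate 2 gave 111, 29.2 and 122. All 11 annotated transcripts cross these 3 sites. Peaks 7 to 10, at 55833, 66638, 90296 and 93162 bp, had signals of 101, 166, 51.1 and 197. Replicate 1 gave 59.6, 74.1, 22.8 and 87.9 at these, and replicate 2 gave 38.2, 95.3, 24.7 and 109. These sites lie in the distal part of the gene and are crossed by 10, 8, 7 and 7 of the 11 transcripts. All 3 Homer1 motif matches were in this distal part, and all 3 began with CCAGAAG.

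Nptx2 encodes a secreted pentraxin (Narp) that gathers AMPA receptors on the dendrites of interneurons. The summit 15 bp downstream of the TSS of this 11577 bp gene (chr5:144545902-144557478, plus strand), in untranslated exon sequence, had a signal of 233 (107 in replicate 1 and 128 in replicate 2). A second, 2435 bp into the gene, had 54.6 (24.4 in replicate 1 and 29.0 in replicate 2), and the last, at 8633 bp, had 182 (92.0 in replicate 1 and 86.9 in replicate 2). The site at the start was the strongest of the 3. No Nptx2 summit had a match with at most 1 mismatch.

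Signals over the 28 sites spread across the range of the list. The median was 177, against 165 for all 90278 peaks, and 16 of 28 exceeded the list's median. The range was 43.7 to 788, with 3 sites in the top 2 deciles and 7 in the lowest 2. A width of exactly 440 bp was recorded for 10 of the 28, all between 43.7 and 104, and for 37.4% of all peaks, so the width of a weak peak need not measure its extent. The other 18 had signals of 105 and above.

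The CTCF core motif was found at a minority of the sites. A match with at most 1 mismatch within 50 bp was found at 9 of 28 summits, 32.1% (95% exact interval 15.9 to 52.4), beside 50.3% of all summits and 1.25% of equal windows placed 1 kb away. The whole-list share lies inside the interval. With at most 2 mismatches the counts were 20 of 28 and 75.7% of all summits (8.20% of the windows 1 kb away). Promoter sites carry the motif less often throughout the list, at 20.5% of the 9654 summits within 1 kb of a protein-coding TSS against 53.8% of those farther away. Among the 8 promoter summits of these genes, 2 had a match, at Dusp1 and Ier2. The other 7 matches were among the 20 summits farther away. Of the 9 matches, 3 pointed along the gene and 6 against it, and 8 of the 9 were on the plus strand of their chromosome. The same shares over all matches in the list were not computed, so no strand preference is read from these counts.

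The shared word CCAGAAG opened 5 of the 8 matches with 1 mismatch, beside 47.9% of all 36339 such matches in the list. Of these 5, 4 (Homer1 peaks 7 and 10, Ier2 peak 4 and Plk2 peak 1) lay in windows of 52 bases that were more than 50% soft-masked as repeat sequence in the reference, and Homer1 peak 8 was not masked at all. Of the 9 matches these 4 were the ones in mostly masked sequence, beside 42.7% of all matches in the list. Over the whole list, 94.8% of the matches with this word were mostly masked, against 10.2% of the other matches with 1 mismatch. At the Homer1 and Plk2 sites the likeness continued past the motif. Homer1 peak 7 and Plk2 peak 1, on the same chromosome, shared 17 of the 20 bases that follow it. All 10 pairs among the 5 sites with the word shared 3 to 17 of the bases (median 9). The 6 pairs among the Homer1 and Plk2 sites shared 8 to 17 (median 10), and the 4 pairs that include Ier2 peak 4 shared 3 to 5 (median 3.5). Setting Ier2 peak 4 apart was not planned, so the difference between these groups of pairs is a description only. The other 26 pairs of matches shared 1 to 9 (median 5). The class of the repeats was not analysed here.

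Base composition differed by distance from start sites. Within 100 bp either side of the summit the median GC content was 51.0% at the 28 sites, against 46.8% at all summits. The observed over expected CpG ratio was 0.35, against 0.20. Within 1 kb of a TSS the 8 promoter sites had a median GC of 55.5% and a CpG ratio of 0.74, against 61.2% and 0.68 for all such sites in the list. The other 20 sites had 50% and 0.27, against 45.8% and 0.18. The 8 promoter sites ranged widely, with GC between 34.3% at Homer1 peak 3 and 74.6% at Homer1 peak 2.

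The replicates ranked the 28 sites alike. Between log2 signals, Pearson's r and Spearman's rho over these peaks were both 0.98, given as a description since the peaks share their libraries. Replicate 1 was the higher at 10 of 28 sites and at 28.0% of all peaks, and the median ratio of replicate 1 to replicate 2 over the list was 0.94. After centring on that median, the SD of the log2 ratio was 0.28 over the 28 sites, against 0.41 over all peaks. In the list as a whole this SD was 1.03 in the weakest signal decile and 0.067 in the strongest. Read against their own decile, 7 of 28 sites deviated by more than 1 SD (25.5% of all peaks) and 2 by more than 2 SD (3.99%).

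Those 2 were Homer1 peak 1, with a centred log2 ratio of 0.84 (decile SD 0.30), and Homer1 peak 7, with 0.73 (decile SD 0.35). Both had more signal in replicate 1. Homer1 peak 1 was missing from both single-replicate lists, and a candidate peak next to Homer1 peak 7 carries the identical replicate 2 value of 38.2, so the same replicate 2 peak was assigned to both. The 4 strongest sites, at Npas4, Plk2 and Dusp1, had ratios between -0.07 and 0.15. The 3 strongest of them deviated by less than 1 SD of their decile.

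**Figure D3:**
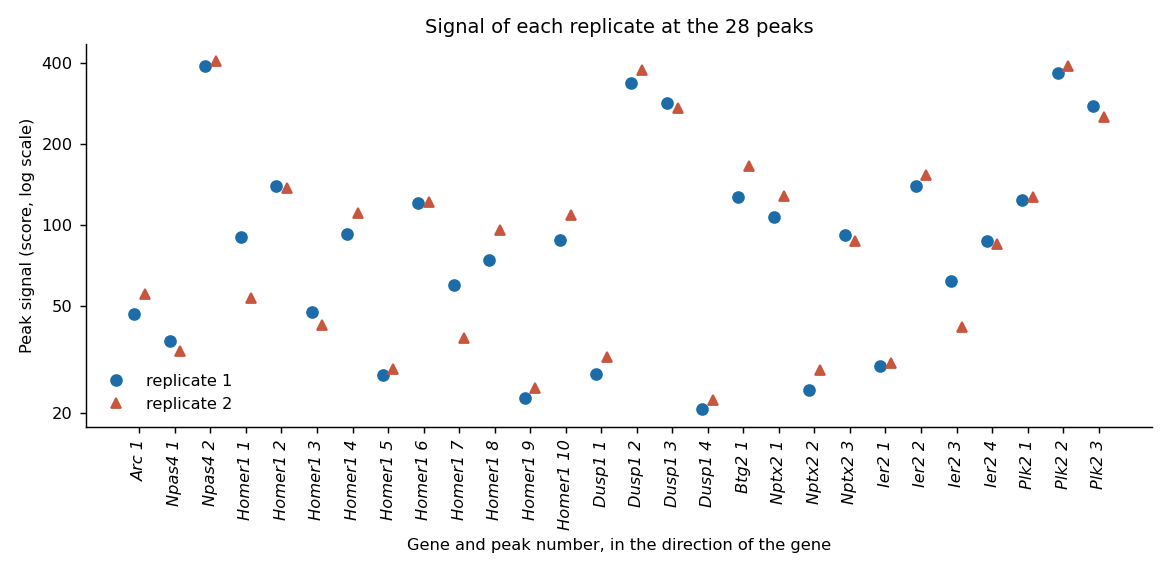
Signal (authors' score, log axis) of replicate 1 (circles) and replicate 2 (triangles) at each of the 28 peaks, numbered within each gene in its 5′ to 3′ direction. The 2 symbols lie close together from the weakest peak (20.7 and 22.3 at Dusp1 peak 4) to the strongest (389 and 405 at Npas4 peak 2), and they separate most at Homer1 peaks 1 and 7 and Ier2 peak 3, where replicate 1 is the higher.

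**Figure D4:**
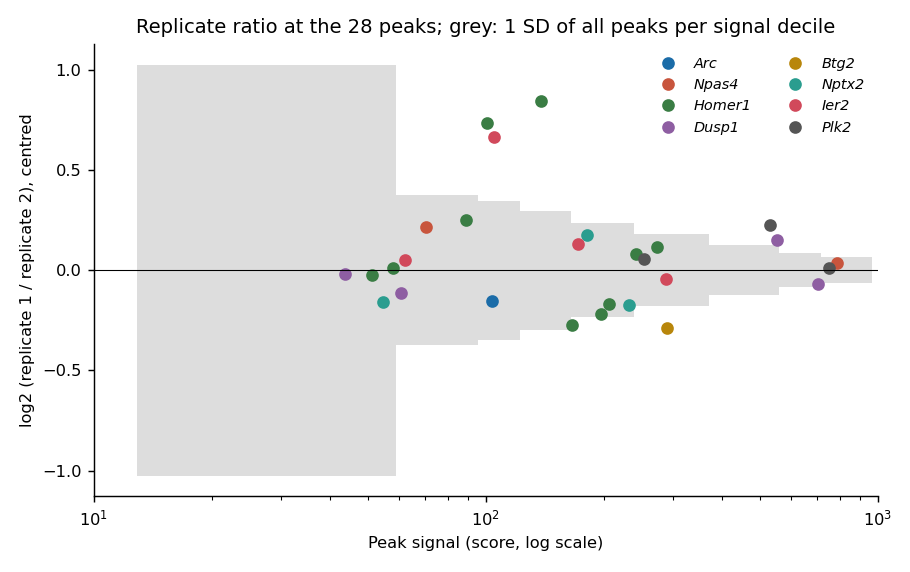
Log2 ratio of replicate 1 to replicate 2, less the median of all peaks, against peak signal (log axis), 1 point per peak coloured by gene. Grey marks 1 SD of the ratio among all peaks in each signal decile. Of the 28 points, 7 lie outside the grey, with Homer1 peaks 1 and 7 at 0.84 and 0.73.

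Most, but not all, of the sites that other peak lists lacked were weak. With a summit within 100 bp counted as found, 21 of the 28 summits were in the list of replicate 1 alone (79.0% of all summits), 21 in that of replicate 2 alone (79.5%) and 21 in the list from pooled reads (77.0%). All 3 lists held 20 of the 28 (70.1% of all), whose signals were 89.0 or more. None of the 3 held 6 (12.8% of all), whose signals were 62.2 or less. The remaining 2 were Npas4 peak 1 (70.5), which the pooled-read list lacked, and Homer1 peak 1 (139), which both single-replicate lists lacked. The lists share reads, so these counts are not independent. The replicate 2 list held 1 further summit in the Homer1 window and 1 in the Plk2 window.

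Most candidate peaks near the 8 genes did not pass the threshold. The ranked list held 82 candidates in the windows, of which 28 passed, 34.1% beside 44.3% of the 203931 ranked candidates in the genome. The 54 that did not pass had signals of 13.4 to 55.4, and 11 of them exceeded the weakest that passed (43.7). The lowest IDR score among those that passed was 604 and the highest among those that did not was 495. Homer1 had 24 candidates with 14 not passing, Dusp1 and Ier2 had 13 with 9 not passing, Arc had 9 with 8, Npas4 had 9 with 7, Plk2 had 6 with 3, and Btg2 had 5 with 4. All 3 Nptx2 candidates passed.

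By GENCODE start sites, the 3 genes with no promoter summit each had a candidate at the promoter that fell short. At Arc it lay 78 bp upstream of the TSS with a signal of 53.5 (27.3 in replicate 1 and 22.6 in replicate 2). At Btg2 it lay 9 bp downstream with 47.6 (22.1 in replicate 1 and 29.4 in replicate 2). At Npas4 it lay 200 bp downstream with 30.1 (17.3 in replicate 1 and 10.2 in replicate 2). Among all 13487 protein-coding genes without a promoter summit, 38.2% had such a candidate. The IDR scores of these 3 candidates were 306 at Arc, 463 at Btg2 and 101 at Npas4, below the threshold of 540. Just beyond 1 kb, Arc had a candidate 1004 bp upstream (signal 49.6, IDR score 460). Npas4 had one 1144 bp downstream (signal 39.1, IDR score 473). The latter is within 1 kb of the start site of the RefSeq promoter entry for Npas4. No looser threshold was tried.

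**Figure D5:**
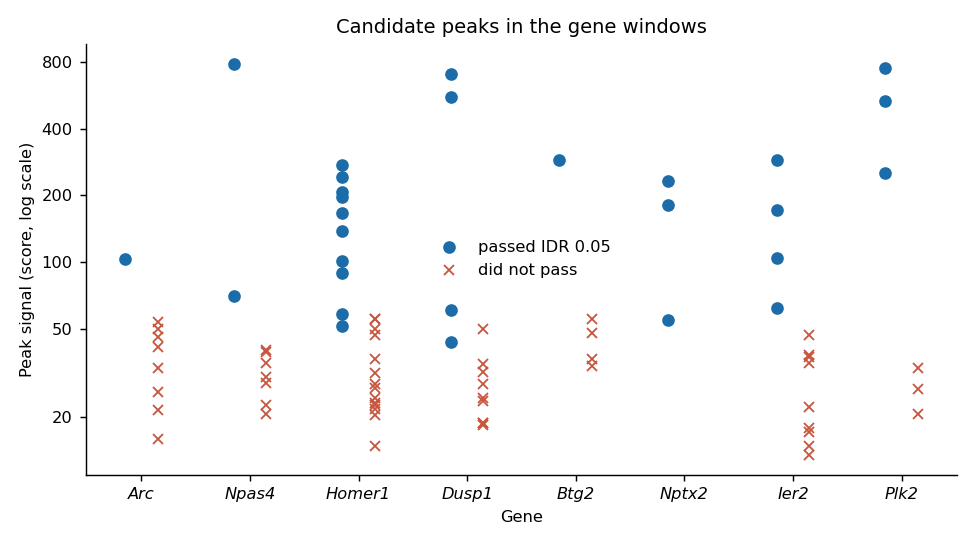
Signal (authors' score, log axis) of every candidate peak in the windows of the 8 genes, with circles for the 28 that passed an IDR of 0.05 and crosses for the 54 that did not. The classes overlap between 43.7 and 55.4, and every candidate above 55.4 passed.

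The nearest sites outside the gene span set intervals of very different length around the 8 genes. The interval between them was 8.12 kb at Ier2, 11.2 kb at Npas4, 24.6 kb at Arc, 45.6 kb at Btg2, 91.4 kb at Nptx2, 105 kb at Dusp1, 158 kb at Plk2 and 207 kb at Homer1. With RefSeq spans, added after the data were seen, it was 17.4 kb at Dusp1, where the strong summit upstream of the promoter becomes the nearest outside site, 21.9 kb at Npas4 and 147 kb at Homer1, and it did not change at the other 5 genes. Upstream of Arc the nearest site lay 19.9 kb from the gene and had a signal of 852, far above the 104 of the downstream site. Upstream of Homer1 it lay 56.3 kb away with 814, and upstream of Btg2 27.9 kb away with 706. Downstream of Plk2 it lay 152 kb away with 44.6, so the strong Plk2 sites all stood on the promoter side. Taking the nearest sites with a motif match on either side, the motifs pointed toward each other at Arc, Dusp1, Btg2 and Plk2 and in the same direction at Npas4, Homer1, Nptx2 and Ier2. The shares over all genes were not computed, so these counts cannot be read as particular to the 8 genes. These motif pairs were 24.6 kb apart at Arc, 47.1 kb at Btg2, 162 kb at Dusp1 and 577 kb at Plk2. The same motif pairs followed from the RefSeq spans. Whether any pair forms a loop was not tested.

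Promoter sequences from RefSeq (GRCm38.p6, 250 bases before to 50 after the start site) were matched for 5 of the 8 genes, Npas4, Homer1, Dusp1, Btg2 and Plk2. The Npas4 window, chr19:4989922-4990221, lies wholly downstream of the GENCODE start site used above. Homer1 has 2 entries. They are shown for Homer1 and Dusp1, where CTCF peaks overlap or flank the start site, with capitals for the CRE, the palindrome TGACGTCA bound by CREB, and for its core TGACG on either strand.
Homer1 promoter 1, chr13:93303507-93303806, plus strand: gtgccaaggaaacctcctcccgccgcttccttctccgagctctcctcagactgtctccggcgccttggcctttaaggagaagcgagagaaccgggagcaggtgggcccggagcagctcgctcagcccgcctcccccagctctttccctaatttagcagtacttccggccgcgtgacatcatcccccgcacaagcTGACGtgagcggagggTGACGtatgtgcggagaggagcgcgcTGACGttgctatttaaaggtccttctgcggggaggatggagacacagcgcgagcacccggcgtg
Dusp1 promoter, chr17:26508423-26508722, minus strand: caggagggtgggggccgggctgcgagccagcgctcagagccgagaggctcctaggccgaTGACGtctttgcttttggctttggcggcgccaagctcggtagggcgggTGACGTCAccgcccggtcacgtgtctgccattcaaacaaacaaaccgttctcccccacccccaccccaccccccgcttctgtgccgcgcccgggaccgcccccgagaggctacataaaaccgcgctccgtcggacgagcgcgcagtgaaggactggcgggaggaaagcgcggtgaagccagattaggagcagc

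Both strands were searched for each motif, and a CRE counts also as 2 cores. A full CRE was present in the promoters of Dusp1, Btg2 and Plk2 and in 1.79% of the 32851 promoters in the table. At least 1 core was present in the Npas4 promoter (2), the first Homer1 promoter (3), and those of Dusp1 (3), Btg2 (2) and Plk2 (3), against 20.8% of all promoters, and in none of the second Homer1 promoter. The AP-1 word TGANTCA, the SRF CArG box and the CTCF core motif with at most 1 mismatch were found in none of these 6 windows, and in 7.81%, 1.63% and 4.33% of all promoters. Such matches describe the letters only. The CRE and its core contain a CpG, and the shares over all promoters were not matched for base composition. The 5 promoters with a core had GC contents of 63.0% to 72.0%, above the table's median of 52.7%, and CpG ratios of 0.60 to 0.94, above its median of 0.38. The second Homer1 promoter had 44.7% and 0.47. Peaks 1 and 2 of Homer1 overlap its first promoter, whereas the Dusp1 promoter lies between its strong peaks and overlaps neither.

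Other genes of the same response gave a wide range of promoter shares. Among 28 other activity-induced effector genes, 21 had a promoter summit (75.0%, 95% exact interval 55.1 to 89.3), with the strongest at Amigo3 (843), a neuronal adhesion molecule, Sgk1 (752), a serum- and glucocorticoid-induced kinase, and Sik1 (712), a salt-inducible kinase. Cdkn1a and Ier3 were among those with none. Of 31 paralogues and direct partners of the 8 genes, 16 had one (51.6%, interval 33.1 to 69.8), with Homer3 (590), a second Homer scaffold, and Btg1 (520), a relative of Btg2, the strongest. Arnt, the partner of Npas4, and Btg3 had none. Of 14 immediate early transcription factors, 6 had one (42.9%, interval 17.7 to 71.1), led by Egr1 (737), Fosb (427) and Nr4a3 (168), with none at Egr2 and Egr3. The interval of the 8 genes overlaps all of these. The list of other effector genes also holds some transcription factors, as the 8 genes do with Npas4, so the lists do not strictly separate effectors from transcription factors. Median density was 7.84 summits per 100 kb over the 8 genes, against 9.22 for the other effectors, 8.14 for the paralogues and partners and 16.1 for the transcription factors.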

How the data were processed

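CTCF ChIP-seq peak lists of 2 biological replicates (2 technical libraries each, per the labels) were used. The authors deposited ranked and IDR-thresholded lists per replicate, from pooled reads and between replicates, with a peak signal in score units, an IDR score up to 1000 (540 at an IDR of 0.05, 830 at 0.01), and q-value and IDR columns given as −log10, which the authors' lists carry and which set no value here. Assembly mm10 comes from the labels. Which aligner, peak caller and control were used is not given in the sources used here. Read depth is unknown. The main list was the between-replicate list at an IDR of 0.05, on chromosomes 1 to 19 and X.

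Summits were placed on GENCODE M21 basic transcripts. Coordinates are 1-based. Replicate signals come from the between-replicate ranked list: 78.1% of its replicate 1 peaks were found in the replicate 1 ranked list and 0% in that of replicate 2, and 80.0% of its replicate 2 peaks were found in the replicate 2 list. The CTCF core motif (12 letters) was searched on both strands within 50 bp. The list of 8 genes and the comparison lists were chosen with earlier results of these data known, so no p-value was computed. All 8 genes and each of their peaks are described. From each comparison list, the 3 genes with the strongest promoter peak and the first 2 by alphabet with none are named. A gene that this rule names is not reported here. Intervals are exact (Clopper-Pearson, 95%). Motif search and counting were tested on simulated data. The tools were pysam 0.24.0, scipy 1.17.1, pandas 2.3.3, numpy 2.4.6 and matplotlib 3.10.9 under Python 3.11.15.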

Additional observations from a re-analysis of the deposited data

How the results depend on the processing

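Over 15 results and 46 alternatives, 36 values stayed within 1.5 times a count, or within the replicate spread or interval of a value, and 10 moved beyond it. The 36 include the strongest signal of each of the 8 genes in the pooled-read list. That list carries the identical value for each, so these 8 say nothing about stability. Of the 8 genes, all 8 had a summit when the promoter was widened to 5 kb, against 5 at 1 kb. The median density of 7.84 summits per 100 kb became 6.35 at an IDR of 0.01 (5.18 over all genes), 5.30 in the pooled-read list (4.46), 10.6 with 5 kb flanks (5.97), 6.85 with 20 kb flanks (6.14) and 9.86 with RefSeq spans, an alternative chosen after the data were seen. Leaving out 1 replicate gave 5.96 to 6.35, against 4.85 to 4.97 over all genes. The lists behind these lower values hold fewer peaks. In each of these settings with a value over all genes, the median of the 8 genes was above that of all genes. The motif share of 32.1% was 3.57% with no mismatch and 71.4% with at most 2, as the looser search admits more matches. No paired analysis was possible because the technical replicate numbers carry no values of their own and no result comes from a test. Unknown depth means that a weak site missing from a list cannot be told apart from an unbound one.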
